A study of Mus musculus with 24 samples.

Results

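Genes of cholesterol synthesis and its control were followed in mouse 32D cells. They were 8 in all, Hmgcs1, Idi1, Fdps, Fdft1, Sqle and Lss, which encode enzymes of the pathway, and Srebf2 and Insig1, which encode its regulators. All 8 were chosen by name, and they were found among 55414 gene identifiers and passed the filter on low counts that left 16167 genes for testing. None of the 8 encodes a receptor that takes up cholesterol, so uptake is described from a separate list. 32D is a myeloid progenitor line from mouse bone marrow that needs interleukin-3. The libraries came from KO1 and KO2, a pair of lines titled Nat10+/- and tagged as Nat10 deficient, and from WT cells. Nat10 encodes the enzyme that acetylates cytidine in RNA, and the series followed transcripts over hours of actinomycin D, which inhibits transcription. How far transcription was blocked was not tested. The courses below are changes of level, and decay was not measured apart from synthesis. All 3 lines grew in 10% serum with 10 ng/ml of IL-3. Actinomycin D was given at 0.05 µg/ml and cells were taken after 0, 3, 6 and 9 h, so the 0 h libraries are the ones without drug. Each line and time had 2 libraries of polyadenylated RNA, 24 in 12 groups. The labels call them biological replicates but do not say that cultures were separate, so the p-values rest on library spread that may be technical. They also do not say how each KO line was derived, and a difference found in 1 line cannot be told apart from other differences between lines.

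Cholesterol is made from acetyl-CoA through mevalonate. Hmgcs1 makes HMG-CoA, Idi1 and Fdps build farnesyl diphosphate, Fdft1 joins it into squalene, and Sqle and Lss turn squalene into lanosterol, the first sterol. SREBP2, the product of Srebf2, is held in the endoplasmic reticulum by SCAP and INSIG1 when sterols are plentiful. When sterols run low it is cut, enters the nucleus and activates genes of synthesis and uptake, Insig1 and Srebf2 among them, through short sterol regulatory elements in their promoters.

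The promoters of Hmgcs1, Srebf2 and Insig1 are printed because these genes followed the 3 different courses under actinomycin D described below. The RefSeq table used here, on GRCm38.p6, held promoters of 5 of the 8 genes (Hmgcs1, Idi1, Lss, Insig1 and Srebf2). Each line gives the 250 bases before the annotated start, 5′ to 3′ on the plus strand, and capitals mark matches on either strand to TCACNCCA, an SRE-type motif, or to CCAAT, the letters bound by NF-Y, a factor that works beside SREBPs.
Hmgcs1 (chr13:119690101-119690350): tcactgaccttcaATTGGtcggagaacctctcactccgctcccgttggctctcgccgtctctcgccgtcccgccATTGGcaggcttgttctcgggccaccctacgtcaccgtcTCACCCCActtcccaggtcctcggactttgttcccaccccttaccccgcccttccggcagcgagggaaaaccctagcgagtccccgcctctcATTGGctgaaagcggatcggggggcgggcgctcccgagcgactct
Srebf2 (chr15:82147019-82147268): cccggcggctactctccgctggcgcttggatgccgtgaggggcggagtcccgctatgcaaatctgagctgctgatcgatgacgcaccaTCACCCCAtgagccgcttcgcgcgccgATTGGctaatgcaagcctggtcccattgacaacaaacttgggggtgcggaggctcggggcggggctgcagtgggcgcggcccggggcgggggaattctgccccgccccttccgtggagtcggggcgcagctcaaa
Insig1 (chr5:28071162-28071411): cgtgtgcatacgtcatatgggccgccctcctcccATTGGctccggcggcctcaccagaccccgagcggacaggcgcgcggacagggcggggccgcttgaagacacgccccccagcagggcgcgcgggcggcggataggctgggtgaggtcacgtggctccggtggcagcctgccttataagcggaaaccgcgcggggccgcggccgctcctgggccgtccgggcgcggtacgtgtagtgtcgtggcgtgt

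TCACNCCA stood in 2 of the 5 windows, at -137 to -130 from the start in Hmgcs1 and at -162 to -155 in Srebf2, and in 3.674% of the 32851 windows of the table. Its letters were chosen after the windows had been read. The longer form TCACNCCAC stood in 1 of the 5, Hmgcs1, and in 1.053% of all windows. CCAAT was found in 5 of 5 windows and in 33.85% of all, and GGGCGG, a GC box that overlaps none of the capitals, in 5 of 5 and in 32.742% of all. These matches describe the letters only.

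Depth was close to even, between 15361601 and 17338939 gene counts per library. Nat10 itself stood at 99.2 and 95.1 CPM (counts per unit of library size, TMM-scaled) in KO2 and 97.7 and 108 CPM in KO1, against 111 and 113 CPM in WT at 0 h. The differences from WT were small (log2 -0.21 in KO2, adjusted p = 0.000291, and -0.12 in KO1, adjusted p = 0.0486, edgeR). The call in KO1 was lost by DESeq2 (adjusted p = 0.0942) and without KO1 0 h replicate 1 (0.685) or either WT library (0.105 and 0.254). Spike-in RNA, added in equal amount to total RNA per the labels, gave between 3742 and 13774 counts in the KO libraries and between 120 and 257 in the WT libraries, so levels are relative to all transcripts and spike-ins were not used between lines. Of 12 myeloid markers of the line, Csf2rb, Csf2rb2, Il3ra and Spi1 stood at 52.3 CPM or more in every library. Prtn3 and Cebpa stood at 13.9 and 2.06 CPM at lowest, and Kit was at or near 0. Cd34, Elane, Ms4a3 and Mpo peaked at 1.31, 1.34, 1.57 and 3.57 CPM and were at 0 in some library. At 0 h 6 or 7 of the 12 were counted in KO2, 9 in KO1, and 9 and 11 in WT. The 12 markers of this kind summed to between 863 and 900 CPM in the KO libraries against 968 and 999 CPM in the WT libraries at 0 h. Ctsg, a granule protease gene, had 0 counts in both KO2 libraries and 293 and 361 counts in KO1, against 250 and 236 counts in WT at 0 h. The 8 macrophage markers summed to between 38.3 and 57.6 CPM in the KO libraries and 111 CPM in both WT libraries at 0 h, with C1qa, C1qb and Marco at 0 in every library. The 8 erythroid and megakaryocyte markers summed to between 1081 and 1297 CPM in the KO libraries against 927 CPM in both WT libraries, and the 10 stromal markers to between 1.37 and 2.20 CPM, with 2 or 3 of them counted, against 12.5 and 15.7 CPM, with 9 or 10 counted. The 8 lymphoid markers summed to between 8.03 and 12.7 CPM against 22.4 and 24.3 CPM. The part of these cell type markers in the results below was not tested, and in bulk RNA fewer cells of a type and less RNA per cell cannot be told apart.

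At 0 h, before the drug, Hmgcs1, Sqle, Idi1 and Srebf2 were lower in both KO lines than in WT. Hmgcs1 (ENSMUSG00000093930, GRCm39 chr13:120151915-120169796), the cytosolic HMG-CoA synthase, had 35.2 and 36.2 CPM in KO2 and 45.0 and 45.6 CPM in KO1, against 63.1 and 58.4 CPM in WT. All WT libraries stood above all KO1 libraries, and those above all KO2 libraries. Lack of overlap was common at 0 h. Of all tested genes 59.1% showed it between KO2 and WT, 59% between KO1 and WT and 52.2% between KO2 and KO1. The fitted log2 difference from WT was -0.77 in KO2 (SE 0.06, edgeR adjusted p 1.9e-19), while KO1 gave -0.42 (SE 0.06, adjusted p 1.2e-08).

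Srebf2 (ENSMUSG00000022463, chr15:82031382-82089580) had 201 and 215 CPM in KO2 and 219 and 217 CPM in KO1, against 282 and 289 CPM in WT. Both KO lines lay below WT without overlap, at log2 -0.46 (SE 0.03) in KO2 and -0.39 (SE 0.03) in KO1, with adjusted p = 5.0e-23 and 8.1e-19 in edgeR. Sqle (ENSMUSG00000022351, chr15:59186926-59203041), squalene epoxidase, had 92.4 and 93.5 CPM in KO2 and 109 and 104 CPM in KO1, against 119 and 131 CPM in WT. Idi1 (ENSMUSG00000058258, chr13:8935537-8942487), isopentenyl diphosphate isomerase, had 20.95 and 23.05 CPM in KO2 and 24.3 and 24.2 CPM in KO1, against 31.3 and 33.9 CPM in WT. For both genes every KO library lay below both WT libraries, at log2 -0.43 and -0.57 in KO2 and -0.24 and -0.43 in KO1.

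Fdft1 (ENSMUSG00000021273, chr14:63382599-63417027), squalene synthase, went opposite ways in the KO lines at 0 h. It had 37.8 and 35.1 CPM in KO2 and 58.3 and 56.5 CPM in KO1, against 47.9 and 49.2 CPM in WT, so that the WT libraries lay between the lines without overlap. It fell in KO2 (log2 -0.41, SE 0.08, adjusted p = 1.8e-05, edgeR) and rose in KO1 (log2 0.24, SE 0.08, adjusted p = 0.0121), and KO2 lay below KO1 by log2 -0.65 (SE 0.08, adjusted p = 7.3e-11). The rise in KO1 was not called without KO1 0 h replicate 1 (adjusted p = 0.0952), without WT 0 h replicate 1 (0.0868) or by DESeq2 (0.0640). Of its 4116 exon bases, 774 overlap Ctsb, a cathepsin gene on the other strand with 3380 to 10302 counts per library, and since counting ignored strand its level is uncertain.

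Lss (ENSMUSG00000033105, chr10:76367422-76392972), lanosterol synthase, and Insig1 (ENSMUSG00000045294, chr5:28276361-28283660) were called in neither line at 0 h. Lss had 34.3 and 37.8 CPM in KO2 and 39.6 and 41.3 CPM in KO1, against 37.3 and 40.1 CPM in WT. Insig1 had 21.6 and 19.7 CPM in KO2 and 22.4 and 20.1 CPM in KO1, against 20.8 and 19.3 CPM in WT. In both genes the libraries of each KO line overlapped those of WT.

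Fdps (ENSMUSG00000059743, chr3:89000895-89009266), farnesyl diphosphate synthase, was barely counted at 0 h, with 1.13 and 1.06 CPM in KO2 and 0.46 and 0.38 CPM in KO1, against 1.598 and 1.537 CPM in WT. KO1 had 7 and 6 counts, and the fall there was the largest among the 8 (log2 -1.88, SE 0.41, adjusted p = 0.000143, edgeR). Fdps shares 1124 of its 4208 exon bases with Gm43738 on the same strand and has processed pseudogenes up to 98.87% identical, so reads could be lost or shared and all its values are uncertain.

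Counted over the 8 genes, KO2 at 0 h had 5 lower and 0 higher, beside 29.4% of all tested genes called in either direction and 14.3% called lower. KO1 had 5 lower and 1 higher, beside 27.3% called in all, 12.3% lower and 15% higher. The median log2 difference of the 8 was -0.44 in KO2 and -0.32 in KO1, against 0 and 0.01 for all tested genes. Both counts share the same WT libraries, and without Fdps they were 5 and 0 of 7 in KO2 and 4 and 1 in KO1.

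**Figure D1:**
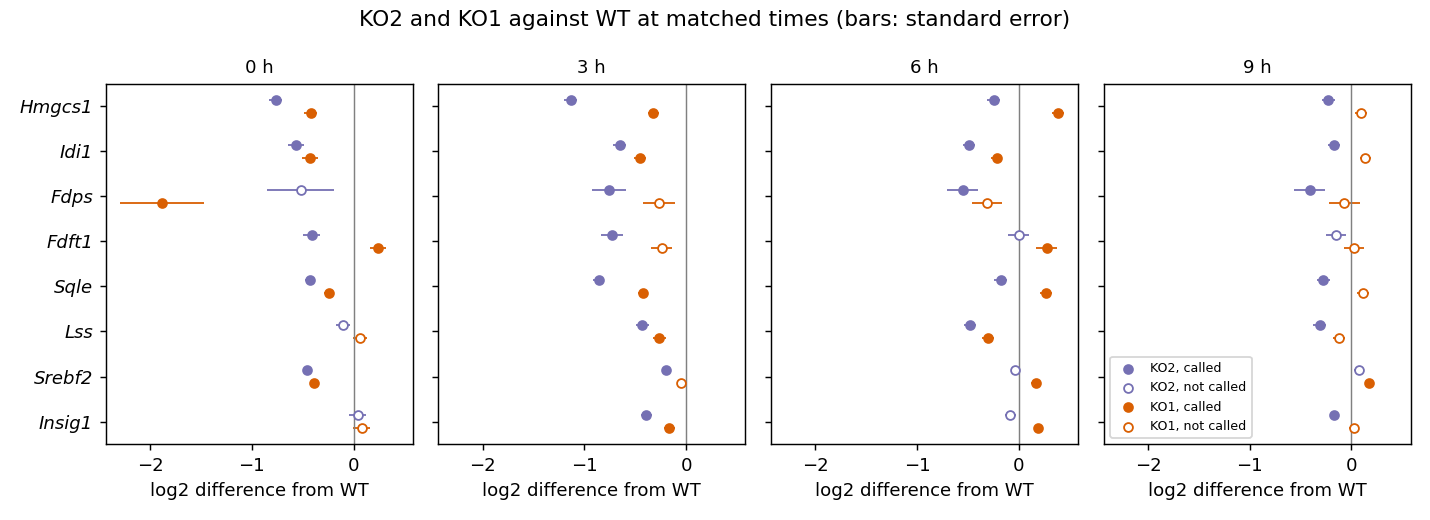
Fitted log2 difference from WT of each of the 8 genes in KO2 and KO1, with bars of 1 SE and filled points where called, 1 panel for each time of actinomycin D. At 3 h all 8 genes of KO2 lie below 0, with Hmgcs1 lowest at -1.14, and at 6 h Hmgcs1 lies at 0.38 in KO1 and -0.25 in KO2.

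After 3 h the gap to WT was widest in KO2. Hmgcs1 had 40.6 and 38.3 CPM in KO2 and 67.5 and 70.9 CPM in KO1, against 86.4 and 87.0 CPM in WT, a log2 difference of -1.14 in KO2 (SE 0.06, edgeR adjusted p 2.8e-32), while KO1 gave -0.32 (SE 0.06, adjusted p 5.2e-07). Sqle had 66.8 and 61.3 CPM in KO2 and 86.0 and 87.5 CPM in KO1, against 121 and 112 CPM in WT, with log2 differences of -0.86 and -0.42. The lines kept the order WT, KO1, KO2 from high to low in both genes, with no overlap between libraries. Of all tested genes 64.9% had no overlap between KO2 and WT, 65.1% between KO1 and WT and 49.3% between KO2 and KO1.

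All 8 genes were called lower in KO2 at 3 h, beside 38.7% of tested genes called and 17.6% called lower, with a median of -0.69. In KO1 5 were called lower and 0 higher, beside 36.8% called and 16.7% called lower, with a median of -0.27. The 5 were Hmgcs1, Sqle, Idi1, Lss and Insig1. Insig1 in KO1 (67.3 and 71.9 CPM, against 77.4 and 78.9 CPM in WT; log2 -0.17, adjusted p = 0.00728, edgeR) was not called without KO1 3 h replicate 1 (adjusted p = 0.165) or without WT 3 h replicate 2 (0.0699). Srebf2 was nearer to WT than at 0 h, with 159 and 162 CPM in KO2 and 178 and 179 CPM in KO1, against 186 and 183 CPM in WT.

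KO2 lay below KO1 in 7 of the 8 genes at 3 h, beside 12% of all tested genes called between these lines and 6.34% called lower in KO2. Hmgcs1 differed most (log2 -0.81, SE 0.06, adjusted p = 6.3e-21, edgeR), then Fdft1 (-0.49) and Sqle (-0.44). Leaving out 1 library at a time left 4 or 5 of the 7, since Fdps, Idi1, Insig1 or Fdft1 lost its call in turn. In Idi1 the value moved to -0.08 without KO2 3 h replicate 2, and in Fdps adjusted p lay at 0.0567 to 0.372 in all 4 cases. At 0 h KO2 had 3 of the 8 lower and 1 higher than KO1 (16.8% of all genes called, 9.55% lower and 7.29% higher). At 6 h it had 6 lower and 0 higher (13.4% called, 7.83% lower), and at 9 h 5 lower and 0 higher (12.4% called, 7.54% lower). At 0 h the higher one was Fdps, which was not called without any 1 of its 4 libraries (adjusted p 0.0772 to 0.179), and Sqle was not called without KO1 0 h replicate 1 (0.0679). At 6 and 9 h Lss lost its call in at least 3 of the 4 cases.

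At 6 h Hmgcs1 and Sqle in KO1 had passed above WT. Hmgcs1 had 41.2 and 40.3 CPM in KO2 and 61.6 and 64.6 CPM in KO1, against 48.3 and 48.4 CPM in WT. KO1 was now highest and KO2 lowest without overlap, with log2 differences from WT of 0.38 in KO1 (SE 0.06, adjusted p = 7.1e-08, edgeR) and -0.25 in KO2 (SE 0.06, adjusted p = 0.000986). Sqle had 42.9 and 42.6 CPM in KO2 and 58.7 and 57.7 CPM in KO1, against 47.2 and 49.5 CPM in WT, at log2 0.27 in KO1 (adjusted p = 0.000119) and -0.18 in KO2 (adjusted p = 0.0172). The Sqle call in KO2 was lost without either KO2 6 h replicate (adjusted p = 0.0651 and 0.0814) or without WT 6 h replicate 2 (0.184).

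In KO1 at 6 h 5 of the 8 were called higher and 2 lower, beside 35.7% of tested genes called, 18.4% higher and 17.4% lower. The higher ones were Hmgcs1, Sqle, Fdft1, Insig1 and Srebf2, and the lower ones Idi1 and Lss. Fdft1 lost its call without any 1 of its 4 libraries (adjusted p 0.0609 to 0.123), and Srebf2 lost it without WT 6 h replicate 2 (0.0962). In KO2 5 were called lower and 0 higher, beside 34.3% called and 16.8% called lower. Idi1 and Lss were lower in both lines, with Idi1 at 60.3 and 58.3 CPM in KO2 and 71.6 and 71.6 CPM in KO1, against 81.9 and 84.6 CPM in WT, and Lss at 45.4 and 47.9 CPM in KO2 and 52.2 and 53.4 CPM in KO1, against 64.2 and 66.0 CPM in WT. No library of either line reached the WT range in these genes. At 6 h 64.1% of all tested genes had no overlap between KO2 and WT, and 66.5% between KO1 and WT.

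At 9 h Srebf2 alone of the 8 was called in KO1, and higher, with 87.9 and 86.4 CPM in KO1 against 76.8 and 77.7 CPM in WT (log2 0.17, SE 0.04, adjusted p = 0.000989, edgeR), beside 34.4% of tested genes called and 19.3% called higher. KO2 still had 6 of the 8 lower and 0 higher, beside 35.2% called and 16.5% called lower. Its differences were small, between log2 -0.41 for Fdps and -0.17 for Idi1 and Insig1. Lss, Sqle and Insig1 kept their calls whichever library was left out. Hmgcs1 lost it without KO2 9 h replicate 1 (adjusted p = 0.0929) or WT 9 h replicate 2 (0.0532), Fdps without the same libraries (0.462 and 0.446), and Idi1 without KO2 9 h replicate 2 (0.282), WT 9 h replicate 1 (0.0855) or WT 9 h replicate 2 (0.0803). Without WT 9 h replicate 2, 3 of the 8 were called in KO2.

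**Figure D2:**
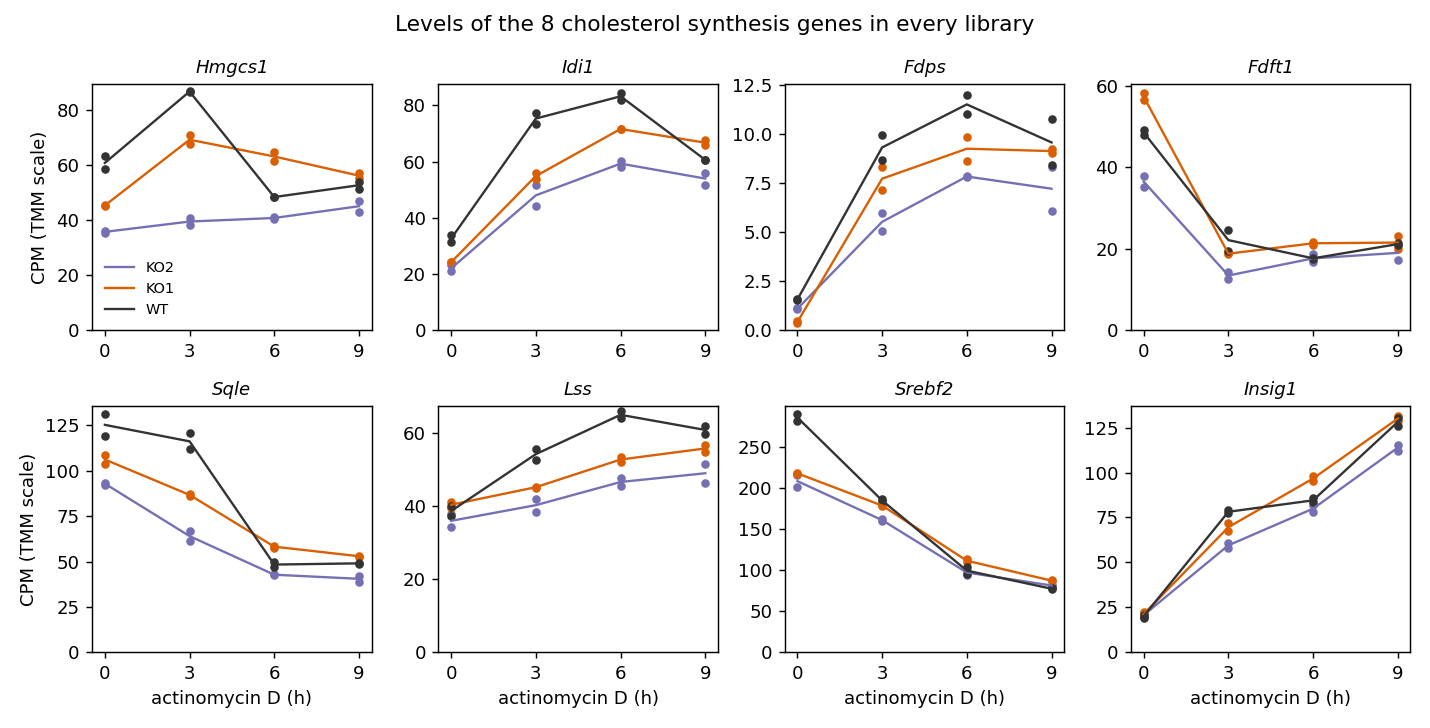
Level of each of the 8 genes in CPM on the TMM scale (each vertical axis has its own range) over hours of actinomycin D in KO2, KO1 and WT, with 1 point per library and lines through group means. Srebf2, Sqle and Fdft1 end lower than they start, Insig1, Idi1, Fdps and Lss end higher, and Hmgcs1 in WT is highest at 3 h, at 86.4 and 87.0 CPM.

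Under actinomycin D the 8 genes followed 3 courses. Srebf2, Sqle and Fdft1 fell in share in all 3 lines. Srebf2 in KO2 had 201 and 215 CPM at 0 h, 159 and 162 at 3 h, 94.6 and 99.4 at 6 h, and 80.4 and 81.9 at 9 h. In KO1 it had 219 and 217, 178 and 179, 109 and 113, and 87.9 and 86.4 CPM, and in WT 282 and 289, 186 and 183, 103 and 95.2, and 76.8 and 77.7 CPM at the same times. On the TMM scale it lay lower at each later time in each line. Its log2 change on that scale at 9 h against 0 h was -1.36 in KO2, -1.32 in KO1 and -1.89 in WT (SE 0.04 each). On the spike-in scale described below, its change against 0 h in KO1 was -1.43 at 6 h and -1.24 at 9 h.

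Fdft1 fell early. At 3 h it had 14.3 and 12.6 CPM in KO2, 18.7 and 18.9 CPM in KO1, and 19.6 and 24.7 CPM in WT, all far below the 0 h libraries. At 6 h it had 16.7 and 18.6 CPM in KO2, 21.04 and 21.7 CPM in KO1, and 17.8 and 17.5 CPM in WT, the lowest of the 4 times in WT. From 3 h to 9 h it was not called in KO1 or WT, and it rose in KO2 (log2 0.50, SE 0.11, adjusted p = 2.7e-05, edgeR), to 17.2 and 20.8 CPM, a rise of 0.05 on the spike-in scale described below (adjusted p = 0.797). Its levels at 9 h were 23.1 and 19.9 CPM in KO1 and 21.4 and 20.9 CPM in WT. The limit from the overlap with Ctsb, given above, holds for this course too. Over both WT libraries Ctsb had 8858 counts at 0 h and 20537 at 9 h, and its part in the Fdft1 course was not tested.

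Sqle in KO2 had 92.4 and 93.5 CPM at 0 h, 66.8 and 61.3 at 3 h, 42.9 and 42.6 at 6 h and 38.7 and 42.2 at 9 h, and in KO1 109 and 104, 86.0 and 87.5, 58.7 and 57.7, and 53.2 and 52.6 CPM. In both KO lines it was already lower at 3 h without overlap (log2 -0.54 and -0.29 against 0 h). On the spike-in scale described below, Sqle changed from 0 to 3 h by log2 -1.22 in KO2, -0.46 in KO1 and -0.62 in WT. On the TMM scale Sqle in WT kept most of its level until 3 h. It had 119 and 131 CPM at 0 h and 121 and 112 CPM at 3 h. At 6 h it had 47.2 and 49.5 CPM, and at 9 h 49.3 and 48.7 CPM. Its WT change from 0 to 3 h was small (log2 -0.11, adjusted p = 0.0296) and was not called without WT 0 h replicate 2 (adjusted p = 0.625) or WT 3 h replicate 2 (0.473), while its change at 9 h against 3 h was -1.25 (SE 0.05, adjusted p = 8.2e-41).

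Insig1, Idi1, Fdps and Lss took a larger share of the library over time. Insig1, which encodes the sterol-dependent anchor of SCAP, had 21.6 and 19.7 CPM at 0 h, 58.1 and 60.9 at 3 h, 81.9 and 77.9 at 6 h and 116 and 112 at 9 h in KO2. In KO1 it had 22.4 and 20.1, 67.3 and 71.9, 95.4 and 98.0, and 128 and 132 CPM, and in WT 20.8 and 19.3, 77.4 and 78.9, 83.3 and 85.7, and 130.4 and 126 CPM. On the TMM scale it was higher at each later time in each line, without overlap. Its log2 change on that scale at 9 h against 0 h was 2.46 in KO2, 2.62 in KO1 and 2.67 in WT (SE 0.06 each), or 5.51-fold, 6.13-fold and 6.38-fold. On the spike-in scale described below, its log2 changes at 3 and 6 h against 0 h were 0.85 and 0.81 in KO2. They were 1.55 and 1.73 in KO1 and 1.46 and 1.26 in WT, so the step from 3 to 6 h was no rise in KO2 or WT.

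Idi1 was 2.45-fold, 2.76-fold and 1.86-fold higher at 9 h than at 0 h in KO2, KO1 and WT. In WT it was highest at 6 h and had 60.7 and 60.6 CPM at 9 h, against 73.3 and 77.4 CPM at 3 h (log2 -0.31, SE 0.06, adjusted p = 1.2e-06, edgeR). In KO1 it had 67.5 and 65.9 CPM at 9 h against 53.7 and 56.0 CPM at 3 h (log2 0.28, adjusted p = 1.8e-05), so the lines moved opposite ways over this span. Lss in KO2 had 34.3 and 37.8 CPM at 0 h, 42.1 and 38.6 at 3 h, 45.4 and 47.9 at 6 h and 46.5 and 51.6 at 9 h. In KO1 it had 39.6 and 41.3, 45.4 and 45.1, 52.2 and 53.4, and 54.9 and 56.8 CPM, and in WT 37.3 and 40.1, 55.8 and 52.8, 64.2 and 66.0, and 59.8 and 62.1 CPM. Lss changed least of these genes, by log2 0.45 in KO2, 0.47 in KO1 and 0.65 in WT at 9 h against 0 h. Fdps had 5.97 and 5.08 CPM in KO2, 7.13 and 8.31 CPM in KO1 and 8.69 and 9.94 CPM in WT at 3 h, far above its 0 h levels, and at 9 h 6.09 and 8.33, 9.03 and 9.23, and 8.40 and 10.7 CPM. Its counts carry the limit given above.

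Hmgcs1 followed neither course. In WT it was highest at 3 h and had 51.4 and 54.0 CPM at 9 h, below the 63.1 and 58.4 CPM of 0 h (log2 -0.21, SE 0.06, adjusted p = 0.000986, edgeR). That call was lost without WT 0 h replicate 1 (adjusted p = 0.0524). In KO1 it was also highest at 3 h but stayed above its 0 h level, with 55.2 and 57.0 CPM at 9 h against 45.0 and 45.6 CPM at 0 h. In KO2 it stood between 35.2 CPM at 0 h and 47.0 CPM at 9 h over all 8 libraries. On the spike-in scale the rise to 3 h in WT was 0.01 (adjusted p = 0.944), against 0.51 on the TMM scale, and the rise at 6 h against 0 h in KO1 was 0.02 (adjusted p = 0.908), against 0.48. In KO2 the TMM log2 change was 0.33 at 9 h against 0 h (SE 0.07, adjusted p = 3.1e-06).

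Counts over time say little about these genes as a set, because most genes were called. Lack of overlap between times was as common. At 3 h against 0 h 83% of all tested genes showed it in KO2, 84% in KO1 and 84.7% in WT. At 9 h against 3 h the shares were 80.6%, 81.9% and 81.8%. At 9 h against 0 h 5 of the 8 were higher and 3 lower in KO2 (80.8% of all tested genes called), 5 and 3 in KO1 (80.5%), and 4 and 4 in WT (81.7%). At 3 h against 0 h the counts were 4 and 3 (70.9%), 5 and 3 (71.3%) and 5 and 3 (72.2%) in the same order of lines. At 6 h against 0 h they were 5 and 3 (79.2%), 5 and 3 (78%) and 4 and 4 (79.1%), and at 9 h against 3 h 6 and 2 (66.2%), 3 and 3 (65.2%) and 2 and 4 (65.9%). Among these, the rise of Lss at 3 h (log2 0.16 in KO2 and in KO1) was not called by DESeq2 (adjusted p = 0.157 in KO2 and 0.138 in KO1) or without single libraries (up to 0.325 and 0.159), and its rise in WT from 3 to 9 h (0.17) was not called without WT 3 h replicate 2 (0.177) or WT 9 h replicate 2 (0.122). Idi1 and Fdps in KO2 from 3 to 9 h were not called without single KO2 libraries (adjusted p up to 0.546 and 0.589).

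The direction of some of these changes depended on the scale. With spike-in totals as the scale, the median change of all genes at 9 h against 0 h moved by -1.12 in KO2, 0.08 in KO1 and -0.82 in WT (log2). On both scales Insig1 and Fdps rose and Srebf2, Sqle and Fdft1 fell at 9 h in all 3 lines, with Insig1 at 1.33, 2.69 and 1.85 and Srebf2 at -2.49, -1.24 and -2.71 in KO2, KO1 and WT on the spike-in scale. Idi1 was called higher on it in KO1 only (1.54), and had 0.16 in KO2 (adjusted p = 0.262) and 0.07 in WT (adjusted p = 0.653). Lss turned to -0.68 in KO2 and -0.17 in WT, and Hmgcs1 to -0.79 in KO2. The WT scale rests on 120 to 257 spike-in counts per library, which limits its precision.

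**Figure D3:**
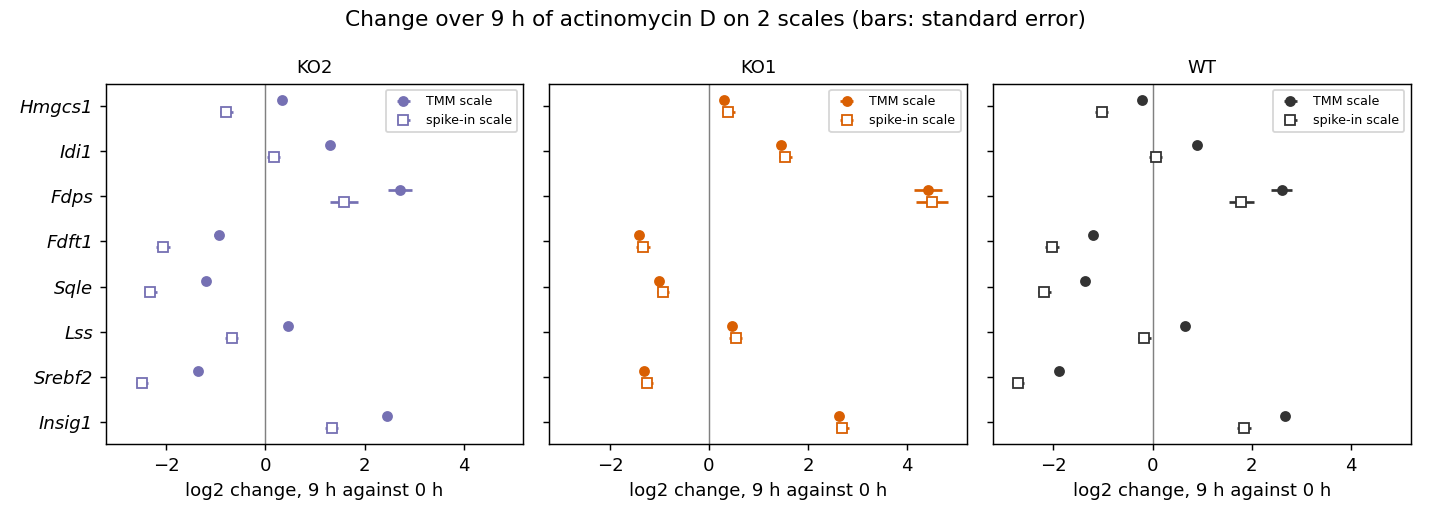
Log2 change at 9 h against 0 h of each of the 8 genes in KO2, KO1 and WT, on the TMM scale and on the spike-in scale, with bars of 1 SE. Insig1 and Fdps lie above 0 and Srebf2, Sqle and Fdft1 below 0 on both scales in all 3 lines, while Lss in KO2 and WT and Hmgcs1 in KO2 change side.

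Whether a KO line changed over time differently from WT was tested as the difference of the changes, which shares the WT libraries between lines. From 3 h to 9 h Hmgcs1 changed by log2 0.19 in KO2 and -0.30 in KO1, against -0.72 in WT. The change in KO2 was not called without KO2 3 h replicate 2 (adjusted p = 0.124) or KO2 9 h replicate 2 (0.175). On the spike-in scale these changes were -0.26, -0.06 and -1.04, and the differences between lines were not tested on it. On the TMM scale the log2 difference of the changes was 0.91 in KO2 (SE 0.09, edgeR adjusted p 2.2e-15), while KO1 gave 0.42 (SE 0.08, adjusted p 2.7e-05). Sqle gave 0.59 and 0.53, Idi1 0.49 and 0.60, and Srebf2 0.27 and 0.22, each called in KO2 and in KO1. Over this span 6 of the 8 were called higher and 0 lower in KO2, beside 20.8% of all genes called and 9.99% called higher, and 5 and 0 in KO1, beside 21.1% and 11%. Insig1 (0.22 and 0.19) was among both counts, and leaving out single libraries raised its adjusted p to as much as 0.0913 in KO2 and 0.223 in KO1. Fdft1, called in KO2 alone (0.57), was not called there without KO2 9 h replicate 2 (adjusted p = 0.0563) or WT 3 h replicate 2 (0.0939).

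From 0 to 9 h Hmgcs1, Idi1 and Srebf2 gave positive differences of the changes in both lines. They were 0.54, 0.40 and 0.53 in KO2 and 0.51, 0.57 and 0.57 in KO1, and the 0 h levels of the same genes were lower in the KO lines. In KO2 these were the 3 genes called (25.9% of all genes called, 13.5% higher), and in KO1 Sqle (0.35) and Fdps (1.82) were called as well, 5 in all (27.1% called, 14.7% higher). From 0 to 3 h the directions were mixed. KO2 had 1 of the 8 higher and 4 lower (24.7% called, 13.3% higher and 11.4% lower). KO1 had 2 higher and 3 lower (25.8% called, 13.1% higher and 12.7% lower). Srebf2 was higher in both (0.26 and 0.34) and Lss lower in both (-0.33 in each). These differences were not tested on the spike-in scale. There Lss changed from 0 to 3 h by -0.52 in KO2, -0.00068 in KO1 and -0.022 in WT. Sqle changed by -1.22, -0.46 and -0.62, a smaller fall in KO1 than in WT. Srebf2 changed by -1.05, -0.45 and -1.13. The Lss and Sqle calls over this span were lost in some cases without 1 library, with adjusted p up to 0.0944 for Lss in KO2, 0.0503 for Lss in KO1 and 0.293 for Sqle in KO1. Fdft1 in KO1 (-0.48) moved to -0.30 without WT 3 h replicate 2 and was not called (adjusted p = 0.147).

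Within a library, the order of levels per kilobase of exon changed under the drug, and order does not depend on the scale between libraries. At 0 h Srebf2 was first in all 3 lines, with means of 29.0 CPM per kb in KO2, 30.3 in KO1 and 39.7 in WT, and Sqle was second. Insig1 took position 5 in KO2 and position 6 in KO1 and WT, at 6.68, 6.87 and 6.49 CPM per kb. Its range overlapped that of Idi1 in KO2 and KO1, so these neighbours did not differ beyond their spread. At 9 h Insig1 was first in all 3 lines, at 36.8, 42.0 and 41.4 CPM per kb, and Idi1 was second. Srebf2 then stood at 11.3, 12.1 and 10.8 CPM per kb, near Hmgcs1, whose range it overlapped in KO1. Fdps was last in every line at 0 h and 9 h.

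Across the 12 group means the 8 genes did not share 1 profile. Pearson correlations of log2 levels ran from -0.88 (Insig1 with Srebf2) to 0.96 (Idi1 with Fdps) over 28 pairs. They are descriptions of points that share cells, drug times and libraries. Srebf2, Sqle and Fdft1 correlated with each other at 0.65 or more, and Idi1, Fdps, Lss and Insig1 at 0.80 or more, while every pair across these sets lay between -0.88 and -0.51. Hmgcs1 lay between -0.02 and 0.48 with all others. With the mean of the other 7, Hmgcs1 correlated at 0.89, and Idi1, Lss, Fdps and Insig1 at 0.46, 0.40, 0.30 and 0.16. Sqle, Srebf2 and Fdft1 had -0.16, -0.38 and -0.47, so the mean profile describes few of the 8. The genes most like the mean profile of the 8, with at least 5 CPM on average, were Acadsb (0.91), Tmem50b (0.89), Cyp51 (0.88), Fth1 (0.87), Gabarapl2 (0.86), Cat (0.85) and Rhoc (0.85), together with AC133509.1, over the same 12 means. Cyp51, lanosterol demethylase of the next step after Lss, had 45.6 CPM in KO2, 45.0 in KO1 and 54.4 in WT at 0 h and 51.7, 69.4 and 94.2 CPM at 3 h.

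Among 16 other enzymes of cholesterol synthesis, more were lower than higher in the KO lines at 0 h. In all 11 were called lower and 1 higher in KO2, and 6 lower and 0 higher in KO1, with medians of -0.28 and -0.10. Of all tested genes 29.4% were called and 14.3% called lower in KO2, and 27.3% and 12.3% in KO1. Acat2, a thiolase of the first step (-0.59 in KO2 and -0.64 in KO1), and Dhcr7, a reductase of late steps (-0.52 and -0.69), were among those lower in both lines. At 9 h Mvk, mevalonate kinase, was higher in both lines (0.32 and 0.38), although its call in KO2 was lost without KO2 9 h replicate 1 (adjusted p = 0.131) or either WT library (0.0664 and 0.0573). At that time Sc5d (-0.24 and -0.21) and Lbr (-0.15 and -0.17), a desaturase and a reductase of late steps, were lower in both. At 9 h KO2 had 8 lower and 1 higher (35.2% of all tested genes called, 16.5% lower), and KO1 2 lower and 6 higher (34.4% called, 19.3% higher).

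**Figure D4:**
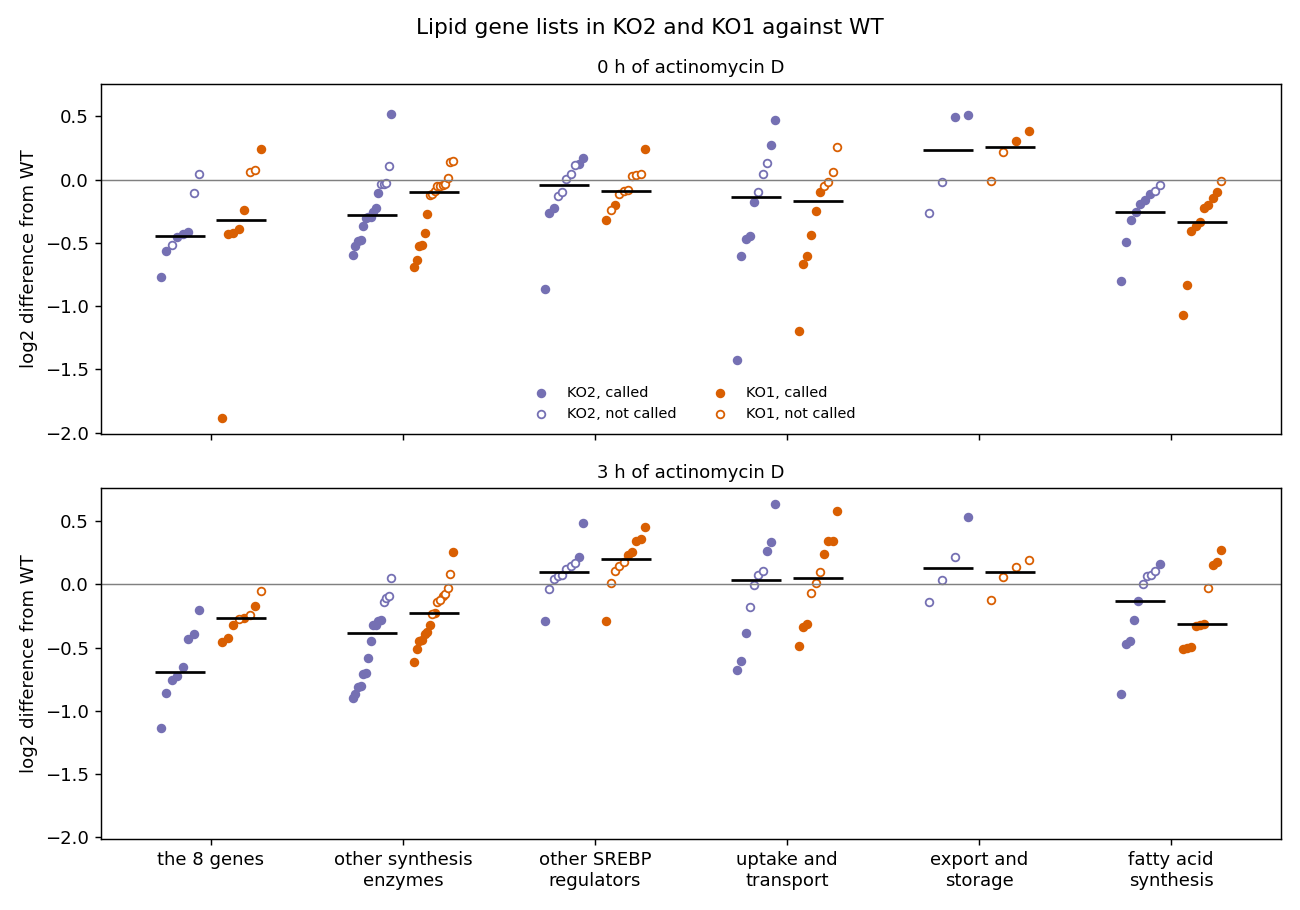
Fitted log2 difference from WT of every tested gene of the 8 and of 5 related lists, in KO2 and KO1, at 0 h and 3 h, with 1 point per gene (filled where called) and a bar at the list median over all its tested genes. Points beyond 2 log2 units, from Scd1 and Mid1ip1, are not drawn, and at 0 h most points of the synthesis, uptake and fatty acid lists lie below 0.

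Of the 10 uptake and transport genes tested, 5 were lower and 2 higher in KO2 at 0 h (14.3% of all tested genes lower), and 6 lower and 0 higher in KO1 (12.3% lower). Lipa, the lysosomal lipase that frees cholesterol (-0.60 in KO2 and -0.67 in KO1), and Scarb1, an HDL receptor (-0.47 and -0.61), were among those lower in both. At 9 h Lipa was higher in both (0.18 and 0.27), and Lrp8 (-0.35 and -0.32), Npc2 (-0.29 and -0.20) and Mylip (-0.61 and -0.40) lower. Npc2 carries cholesterol out of lysosomes and Mylip encodes a ubiquitin ligase. Mylip in KO1 ranged from -0.69 to -0.16 when 1 library was left out, with adjusted p up to 0.521.

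The 10 other regulators of SREBPs moved both ways at 0 h, with 3 lower and 2 higher in KO2 and 2 lower and 1 higher in KO1, where 29.4% and 27.3% of all tested genes were called. The share in KO1 is near that of all genes. Insig2 (-0.26 and -0.32) and Rnf145 (-0.23 and -0.20) were lower in both lines. Without 1 library, Insig2 reached adjusted p = 0.12 in KO2 and 0.11 in KO1. At 9 h Scap, the escort of SREBPs (0.39 and 0.34), Srebf1 (0.25 and 0.27) and the protease gene Mbtps2 (0.27 and 0.35) were higher in both, and Erlin1 (-0.52 and -0.30) was lower in both. Mbtps2 lost its call in both lines, and Erlin1 its call in KO1, without some library.

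Of 8 export and storage genes 4 were tested. Soat2, which esterifies cholesterol (0.51 and 0.38), and Abcg1, a sterol exporter (0.49 and 0.30), were higher in both lines at 0 h, with none lower. Of all tested genes 29.4% were called in KO2 and 27.3% in KO1 (15% higher in KO1) at 0 h. At 9 h 35.2% and 34.4% were called (19.3% higher in KO1). Too few of this list were tested to set against these shares. At 9 h Abcg1 (0.30 and 0.26) and Nr1h2, an oxysterol receptor (0.11 and 0.27), were higher in both, and Nr1h2 lost its call in KO2 without KO2 9 h replicate 2 (adjusted p = 0.159) or WT 9 h replicate 1 (0.155). Fatty acid synthesis genes, which SREBPs also drive, were mostly lower at 0 h, 9 of 11 in KO2 and 10 of 11 in KO1 with 0 higher, against 14.3% and 12.3% of all tested genes called lower. Scd2, a desaturase, had a mean of 168 CPM in KO2 and 166 CPM in KO1 against 294 CPM in WT (-0.80 and -0.83). Mid1ip1, an activator of acetyl-CoA carboxylase, had 0 counts over both KO2 libraries at 0 h, against 681 over both WT libraries, which with a floor of 3 counts over the group is at least 216-fold lower, and it was -1.07 in KO1. Scd1 had 1 count in KO2 and 0 in KO1, against 31 in WT, over both libraries of each group at 0 h. That makes it at least 9.57-fold lower in KO1. In WT Scd1 had 0 counts at 3, 6 and 9 h, and DESeq2 gave no adjusted p for it in either line at 0 h. At 9 h Scd2 (-0.79 and -0.30) and Me1, malic enzyme (-0.89 and -0.61), stayed lower in both lines, and Acss2, which makes acetyl-CoA from acetate, was higher (0.22 and 0.30). Acss2 in KO2 moved to 0.07 without KO2 9 h replicate 1 (adjusted p = 0.643), and its call there was also lost without either WT library (0.118 and 0.0727).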

How the data were processed

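Polyadenylated RNA of 24 libraries (12 groups of 2) was read as one table of counts per library, as deposited by the authors. Per the file headers, counts of read pairs per gene came from featureCounts 1.6.3 over exons grouped by gene, with both mates mapped and strand ignored, and the annotation path names Ensembl 105. The submitters' processing notes also name STAR, DESeq2 and GRCm39. Per the labels, the kit was directional. Because counting ignored strand, the counts do not tell apart reads of overlapping genes on opposite strands. The files held 92 spike-in transcripts and 0 entries that name no gene, and a GENCODE table named 52081 of 55414 identifiers. Promoters came from RefSeq on another build and share no coordinates with the files.

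Genes were filtered with filterByExpr (minimum count 10) and fitted in edgeR 4.0.16 by its quasi-likelihood test, with TMM scaling and 1 coefficient for each of 12 groups. Calls needed an adjusted p under 0.05 (Benjamini-Hochberg, 16167 genes), and adjusted p-values are edgeR's unless another tool is named. Differences are fitted log2 values, KO line minus WT or later minus earlier time, with standard errors (SE). The fit and DESeq2 were tested on simulated data. Replicate libraries were kept apart, since chi-square per degree of freedom between them was 1.43 to 2.31. The biological coefficient of variation was 0.0206. Counts carry no molecular identifiers, so floors cover counting error only. Alternatives were DESeq2 1.42.0, RLE scaling, no filter, only the groups compared, a replicate block, spike-in scaling over time and leaving out each library.

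The 8 genes, the other lists and the comparisons were chosen with earlier results of these data known. The text names all 8, up to 3 genes each way per list called alike in both KO lines against WT at 0 h or 9 h (ranked by the smaller of the 2 differences, chosen after values were seen), and the 8 genes most like the mean profile, on log2(CPM + 0.5). Some other genes the rule names are not reported here. Coordinates are GRCm39, from the files.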

Additional observations from a re-analysis of the deposited data

Results flagged for a closer look

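The results below are differences between 2 effects that passed edgeR's test (adjusted p under 0.05). They are given as log2 values on the TMM scale and were not tested with spike-in scaling. No outlying library was looked for, because each group held 2.

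The change from 0 to 3 h differed between KO2 and WT in Hmgcs1 (-0.37), Sqle (-0.43), Lss (-0.33), Insig1 (-0.43) and Srebf2 (0.26). Between KO1 and WT it differed in Sqle (-0.18), Fdps (1.61), Fdft1 (-0.48), Lss (-0.33) and Srebf2 (0.34). By DESeq2 the Sqle difference in KO1 was -0.19 and was not called (adjusted p = 0.0878). Without WT 0 h replicate 1, Sqle moved to -0.12 and Lss to -0.28 in KO1, and Lss to -0.27 in KO2. Changes of Fdps from 0 h in KO1 rest on 7 and 6 counts at 0 h. Fdft1 moved to -0.30 without WT 3 h replicate 2 (adjusted p = 0.147).

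The change from 0 to 9 h differed between KO2 and WT in Hmgcs1 (0.54), Idi1 (0.40) and Srebf2 (0.53). Between KO1 and WT it differed in Hmgcs1 (0.51), Sqle (0.35), Idi1 (0.57), Fdps (1.82) and Srebf2 (0.57).

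The change from 3 to 9 h differed between KO2 and WT in Hmgcs1 (0.91), Sqle (0.59), Idi1 (0.49), Fdft1 (0.57), Insig1 (0.22) and Srebf2 (0.27). Between KO1 and WT it differed in Hmgcs1 (0.42), Sqle (0.53), Idi1 (0.60), Insig1 (0.19) and Srebf2 (0.22).

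KO2 and KO1 differed in their difference from WT, tested as KO2 against KO1 at the same time. At 0 h this held for Hmgcs1 (-0.34), Sqle (-0.19), Fdps (1.37) and Fdft1 (-0.65), and at 3 h for Hmgcs1 (-0.81), Sqle (-0.44), Idi1 (-0.20), Fdps (-0.49), Fdft1 (-0.49), Insig1 (-0.23) and Srebf2 (-0.15). At 6 h it held for Hmgcs1 (-0.63), Sqle (-0.45), Idi1 (-0.27), Lss (-0.18), Insig1 (-0.28) and Srebf2 (-0.20), and at 9 h for Hmgcs1 (-0.32), Sqle (-0.39), Idi1 (-0.31), Lss (-0.19) and Insig1 (-0.19).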

How the results depend on the processing

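Of 240 values of the 8 genes, 185 were called, and 0 of these changed sign outside spike-in scaling. Spike-in scaling was run only on changes over time within a line, so its counts are not out of all 185. Among called changes over time it turned 15 and ended the calls of 6 others. The 6 were Hmgcs1 in KO1 at 6 h against 0 h and 9 h against 3 h, and in WT at 3 h against 0 h. The others were Idi1 in KO2 and WT at 9 h against 0 h and Fdft1 in KO2 at 9 h against 3 h. Calls were lost for 11 of the 185 by DESeq2, 4 with RLE scaling, 9 with no filter, 4 with only the groups compared and 1 with the replicate block, and for 32 without some library, where the lone library left in a group is assumed to vary like the others. The libraries' replicate numbers were not taken to pair them (4 of 66 pairs of groups correlated above 0.1, all 4 between times of KO2, whose 6 pairs lay between 0.063 and 0.152), and the replicate block moved 0 counts by over 1.5 times. In KO1 against WT at 9 h, 2 genes were called with RLE scaling and 3 with only the groups compared, against 1. KO2 against KO1 at 9 h gave 1335 genes of all by DESeq2, against 2010. Fdft1 in KO2 against WT at 6 h was -0.00037 and turned to 0.013 by DESeq2 and with RLE scaling and to 0.0043 with no filter.

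With spike-in scaling Lss turned to -0.00068 and -0.074 at 3 and 6 h against 0 h in KO1, to -0.52, -0.77 and -0.68 at 3, 6 and 9 h in KO2, and to -0.022, -0.065 and -0.17 in WT. Hmgcs1 in KO2 turned to -0.53, -0.95 and -0.79. At 9 h against 3 h Hmgcs1 (-0.26), Idi1 (-0.28), Fdps (-0.063) and Lss (-0.17) turned in KO2, leaving 4 of 8 called, and Fdps (-0.28) and Lss (-0.15) turned in WT. The median of all genes moved by between -1.13 and -0.45 in KO2, -0.82 and -0.32 in WT, and -0.45 and 0.24 in KO1 in these comparisons (log2).

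Without 1 library, the genes called of the 8 were 2 to 3 in KO2 against KO1 at 0 h, 4 to 5 at 3 h, 3 to 5 in KO2 against WT at 9 h and 5 to 8 in KO2 at 9 h against 3 h. All genes called in KO2 against KO1 were 1227 to 1508 at 3 h (1932 with all libraries), 1394 to 1637 at 6 h (2169) and 1274 to 1538 at 9 h (2010). Values that were not called crossed 0. These were Fdft1 (-0.085 to 0.13), Fdps (-0.23 to 0.12) and Insig1 (-0.0014 to 0.049) in KO1 against WT at 9 h, Fdft1 (-0.079 to 0.080) and Srebf2 (-0.089 to 0.027) in KO2 against WT at 6 h, Insig1 at 0 h in KO2 against WT (-0.027 to 0.11) and against KO1 (-0.12 to 0.040), and Fdft1 (-0.23 to 0.11) and Fdps (-0.16 to 0.20) in WT at 9 h against 3 h. Differences of changes that did so were Idi1 from 0 to 3 h (-0.20 to 0.024 in KO2 and -0.092 to 0.026 in KO1), and from 0 to 9 h Fdps in KO2 (-0.13 to 0.32) and Insig1 in KO1 (-0.14 to 0.021). Depth limits Fdps most, with 7 and 6 counts in KO1 at 0 h. Of the other lists' counts, 20 of 360 recomputed moved by over 1.5 times.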
